A study of Mus musculus with 7 samples.

Results

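The paralogous microRNA clusters miR-106b~miR-25 and miR-106a~miR-363 were followed through 7 small RNA libraries of sorted embryonic mouse spinal cord cells. Their 10 mature miRNA rows were taken by name from 1908 rows, and all 10 were found. The miR-106b~miR-25 cluster gave 6 rows (mmu-miR-106b-5p, mmu-miR-106b-3p, mmu-miR-93-5p, mmu-miR-93-3p, mmu-miR-25-3p and mmu-miR-25-5p), and miR-106a~miR-363 gave 4 (mmu-miR-106a-5p, mmu-miR-20b-5p, mmu-miR-18b-5p and mmu-miR-363-3p); the species prefix is left out from here on. Spinal cords were dissociated with papain and sorted for a fluorescent reporter, and small RNAs of the sorted fractions were sequenced. The E10.5 groups were GFP-positive motoneurons of Hb9::gfp embryos (2 libraries) and the GFP-negative, non-motoneuron spinal cells of the same line (2 libraries). The E12.5 groups had 1 library each, from Hb9::gfp motoneurons, from V2a interneurons of Chx10::cre;Rosa26::LSL::tdTomato embryos and from V3 interneurons of Sim1::cre;Rosa26::LSL::tdTomato embryos. All are reporter sorts: GFP follows the Hb9 promoter, and tdTomato stays on in any cell whose lineage once expressed Cre. In such bulk libraries, fewer cells of a type and less RNA per cell cannot be told apart.

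A primary transcript of this family is cut into hairpins, and each hairpin gives a 5p and a 3p strand, of which one is usually loaded into Argonaute as the guide and the other, the passenger, is mostly lost. The guide pairs with messages through its seed, so strands that share a seed can repress the same targets. Both clusters are paralogs of miR-17~92, a cluster known for promoting proliferation and survival, and miR-17~92 itself is needed for survival of some motoneurons in the mouse. The miR-17 seed group is known to repress the cell cycle inhibitor Cdkn1a, and the miR-25/miR-92 seed group the pro-apoptotic Bcl2l11.

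In the GRCm38 assembly with GENCODE M21 annotation, the first cluster lies on the minus strand of chromosome 5, with Mir106b at chr5:138165737-138165818, Mir93 at chr5:138165523-138165610 and Mir25 at chr5:138165321-138165404. All 3 hairpins are intronic in both protein-coding transcripts of Mcm7 that span them; Mcm7 encodes a subunit of the replicative helicase. The second cluster lies on the minus strand of the X chromosome, from Mir106a at chrX:52742503-52742567, through Mir18b, Mir20b, Mir19b-2 and Mir92-2, to Mir363 at chrX:52741693-52741767. The first bases of Mir106a overlap the end of Kis2, a processed transcript on the same strand.

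The mature sequences show which rows can be told apart by their reads. They are given 5′ to 3′ from RefSeq on GRCm38.p6, with the seed (bases 2 to 8) in capitals. The first set carries the miR-17 seed, with miR-17-5p and miR-20a-5p of miR-17~92 added because their reads are shared with 2 of the members.
miR-106b-5p: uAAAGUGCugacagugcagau
miR-93-5p: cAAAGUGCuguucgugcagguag
miR-106a-5p: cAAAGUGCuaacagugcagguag
miR-20b-5p: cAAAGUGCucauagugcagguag
miR-17-5p: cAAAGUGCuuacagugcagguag
miR-20a-5p: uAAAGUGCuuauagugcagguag
The miR-25/miR-92 seed stands in a guide of each cluster.
miR-25-3p: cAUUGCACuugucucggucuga
miR-363-3p: aAUUGCACgguauccaucugua
The miR-18 seed is held by a member and by its counterpart in miR-17~92.
miR-18b-5p: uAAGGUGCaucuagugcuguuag
miR-18a-5p: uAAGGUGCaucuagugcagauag
The last set has the other strands of the 3 miR-106b~miR-25 hairpins, each with a seed of its own.
miR-106b-3p: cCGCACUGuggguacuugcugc
miR-93-3p: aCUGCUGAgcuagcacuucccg
miR-25-5p: aGGCGGAGacuugggcaauugc

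With positions counted from the 5′ end and the first-named miRNA's base written first, miR-17-5p and miR-106a-5p differed by U10A alone. miR-20b-5p and miR-106a-5p differed by C10A and U12C, and miR-18a-5p and miR-18b-5p by A18U and A20U. By contrast miR-93-5p differed from miR-106a-5p at 4 bases, and miR-25-3p and miR-363-3p, although they share a seed, differed at 13 of 22. The E10.5 table marks rows with shared reads as a bundle. miR-106a-5p and miR-20b-5p were in a bundle of 4 rows with miR-17-5p and miR-20a-5p, and miR-18b-5p was in a bundle of 2 with miR-18a-5p. The other 7 members, including all 6 of miR-106b~miR-25 and miR-363-3p, were bundles of their own. Values of the 3 shared members therefore depend on how reads were divided among near-identical rows.

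Depth was 493234 to 802749 reads at E10.5 and 3603568 to 4605473 reads at E12.5, as read from the value of 1 read. miR-218-5p, which marks motoneurons, and its passenger strands summed to 177957 and 200357 RPM (reads normalised to a library total of 1000000) in E10.5 motoneurons, against 6623 and 7320 RPM in GFP-negative cells. At E12.5 they summed to 104220 TPM (the same, after division by mature length) in motoneurons, against 7560 TPM in V2a and 7284 TPM in V3 cells. Of 492 miRNAs tested at E10.5 with limma on log2(RPM + 1), 208 passed a Benjamini-Hochberg adjusted p of 0.05. These were 151 lower (30.7%) and 57 higher (11.6%) in motoneurons than in GFP-negative cells, and the median log2 fold change of all tested miRNAs was -0.34.

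At E10.5 most miR-106b~miR-25 rows were lower in motoneurons than in GFP-negative cells, although miR-106b-5p and miR-25-3p turned to 0.01 and 0.04 on the log2 scale with quantile normalization. For miR-363-3p, at the end of the second cluster, the log2 difference was 0.16 and did not pass the test; it was 0.50 with median-of-ratios, 0.49 with TMM, 0.53 with totals lacking the 5 most abundant miRNAs and 0.02 with totals lacking mesenchymal and muscle rows. With quantile normalization it was 0.82 and passed as higher in motoneurons (limma adjusted p = 0.0154). Of the 10 members, 5 passed the test as lower (miR-106b-5p, miR-106b-3p, miR-93-5p, miR-25-3p and miR-106a-5p), against a background of 30.7% of all tested miRNAs, and 0 passed as higher, against 11.6%. Their median log2 fold change was -0.66. By cluster, 4 of 6 miR-106b~miR-25 rows were called, with a median of -0.77, and 1 of 4 miR-106a~miR-363 rows, with a median of -0.01. Motoneuron libraries lay below GFP-negative ones without overlap in 8 members (48.6% of all tested miRNAs did so), and above them in 1 member, miR-363-3p (25.0% of all tested miRNAs). With median-of-ratios, TMM or totals without the 5 most abundant miRNAs, miR-93-5p and miR-106a-5p were still called lower and the other 3 were not, and with quantile normalization only miR-106a-5p was. Without motoneuron replicate 2 only miR-106a-5p of the 10 members was called lower, and without motoneuron replicate 1 miR-106b-3p, miR-93-5p and miR-106a-5p were.

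miR-93-5p, a guide with the miR-17 seed, had 3818 and 3560 RPM in motoneurons, against 6076 and 6908 RPM in GFP-negative cells. Both motoneuron libraries were below both GFP-negative ones, and the 1.76-fold lower level gave a log2 fold change (log2FC) of -0.81 ± 0.15 (SE; limma, adjusted p = 0.00590), or -0.47 relative to the median of all miRNAs. Its cluster neighbour with the same seed, miR-106b-5p, had 789 and 639 RPM in motoneurons, against 1324 and 1051 RPM in GFP-negative cells. The groups again did not overlap, with a log2FC of -0.73 ± 0.21 (SE; limma, adjusted p = 0.0292), or -0.39 relative to the median.

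miR-106b-3p, the partner strand of miR-106b-5p, had 389 and 339 RPM in motoneurons, against 638 and 724 RPM in GFP-negative cells. It was 1.87-fold lower in motoneurons (log2 fold change -0.90, SE 0.20, limma adjusted p = 0.0111, -0.57 relative to the median). miR-25-3p, the guide with the miR-25/miR-92 seed, had 4838 and 4162 RPM in motoneurons, against 7165 and 6372 RPM in GFP-negative cells. It was 1.504-fold lower, the smallest of the 4 called differences in this cluster (log2 fold change -0.59, SE 0.16, limma adjusted p = 0.0238, -0.25 relative to the median).

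The 2 minor strands of the cluster did not pass the test with all 4 libraries and no replicate block. miR-25-5p had 167 and 270 RPM in motoneurons, against 306 and 498 RPM in GFP-negative cells, with a log2 fold change of -0.88 and a 95% confidence interval from -1.69 to -0.07 (limma adjusted p = 0.0773). Its replicates were farther apart than those of the guides, and in both fractions replicate 2 was the higher one. It passed as lower without GFP-negative replicate 1 (-1.23, limma adjusted p = 0.0110) and with the replicate number as a block (limma adjusted p = 0.0135), and its log2 difference was between -1.23 and -0.53 with 1 library left out. miR-93-3p, the rarest member, had 46.1 and 42.6 RPM in motoneurons, against 56.6 and 70.6 RPM in GFP-negative cells (log2 fold change -0.50, interval from -1.28 to 0.28, limma adjusted p = 0.258).

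**Figure D1:**
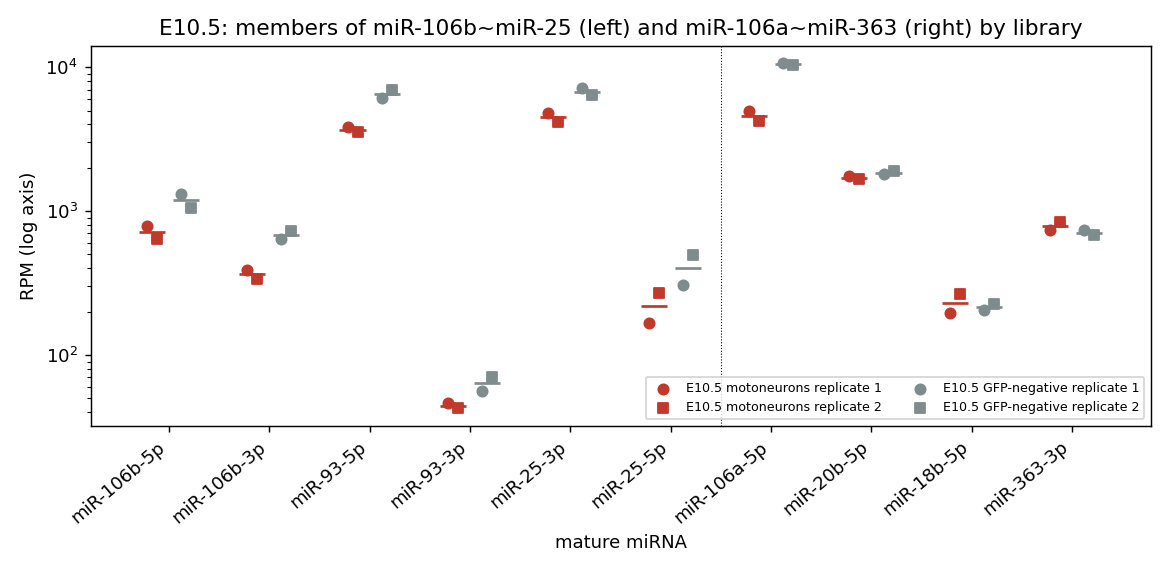
Level of each member in the 4 E10.5 libraries, in RPM on a log axis, with motoneurons left of GFP-negative cells for each miRNA; circles are replicate 1, squares replicate 2 and horizontal bars the group means. The groups are apart for all 6 miR-106b~miR-25 rows and for miR-106a-5p, are close for miR-20b-5p and miR-363-3p, and overlap for miR-18b-5p.

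The 4 rows of miR-106a~miR-363 did not move as one. miR-106a-5p, a guide with the miR-17 seed, had 4925 and 4220 RPM in motoneurons, against 10665 and 10279 RPM in GFP-negative cells. This was a 2.29-fold lower level in motoneurons (log2 fold change -1.20, SE 0.15, limma adjusted p = 0.00129, -0.86 relative to the median). miR-20b-5p, with the same seed, had 1746 and 1674 RPM in motoneurons, against 1820 and 1889 RPM in GFP-negative cells. Its log2 fold change of -0.12 had a confidence interval from -0.49 to 0.26 (limma adjusted p = 0.593), and it lay 0.22 above the median of all miRNAs; with these scalings and quantile normalization it was 0.22 to 0.68.

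miR-18b-5p, with the miR-18 seed, had 197 and 266 RPM in motoneurons, against 205 and 225 RPM in GFP-negative cells. The groups overlapped, at a log2 fold change of 0.09 with an interval from -0.52 to 0.70 (limma adjusted p = 0.802). miR-363-3p, with the miR-25/miR-92 seed and reads of its own, had 741 and 837 RPM in motoneurons, against 737 and 678 RPM in GFP-negative cells. Its log2 fold change was 0.16, with an interval from -0.28 to 0.60 (limma adjusted p = 0.535), or 0.50 above the median of all miRNAs. The other strand of that hairpin, miR-363-5p, had 196 and 253 RPM in motoneurons, against 197 and 180 RPM in GFP-negative cells. Its log2 fold change of 0.24 likewise did not pass (SE 0.25, limma adjusted p = 0.483).

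**Figure D2:**
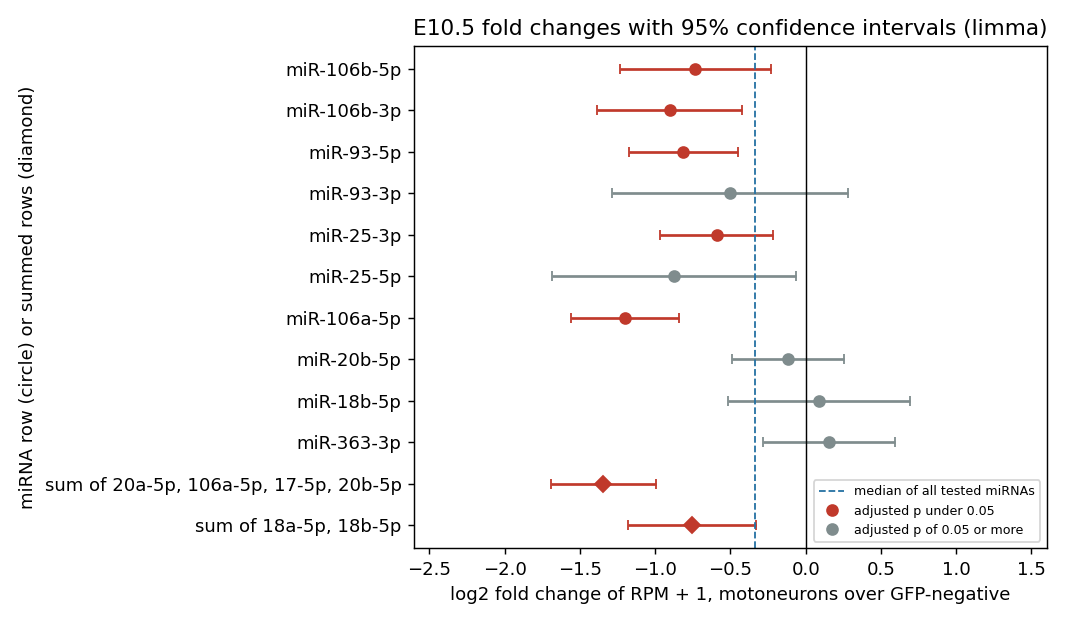
E10.5 log2 fold change of RPM + 1, motoneurons over GFP-negative cells, with 95% confidence intervals from limma, for the 10 members (circles) and for the 2 bundles of shared rows after summing (diamonds); red marks an adjusted p under 0.05, and the dashed line is the median of all tested miRNAs at -0.34. The summed bundles lie at -1.35 and -0.75, although miR-20b-5p and miR-18b-5p alone lie at -0.12 and 0.09.

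Because 3 members share reads, the bundles were also tested as sums. The 4 rows miR-17-5p, miR-20a-5p, miR-106a-5p and miR-20b-5p together had 28630 and 25793 RPM in motoneurons, against 66481 and 71727 RPM in GFP-negative cells. The sum was lower in motoneurons, with a log2FC of -1.35 ± 0.14 (SE; limma, adjusted p = 0.00127). miR-18a-5p and miR-18b-5p together had 539 and 527 RPM in motoneurons, against 853 and 949 RPM in GFP-negative cells. Their log2FC was -0.75 ± 0.17 (SE; limma, adjusted p = 0.0174).

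Within the 4-row bundle, the deposited split gave miR-106a-5p 17.2% and 16.4% of the summed level per length in E10.5 motoneurons, against 16.04% and 14.3% in GFP-negative cells. miR-20b-5p took 6.10% and 6.49% in motoneurons, against 2.74% and 2.63% in GFP-negative cells. So the share of miR-20b-5p was higher in both motoneuron libraries, and that of miR-106a-5p was only slightly so. At E12.5 miR-106a-5p took 0.663% in motoneurons, 0.887% in V2a and 0.717% in V3 cells. miR-20b-5p took 4.94% in motoneurons, 3.96% in V2a and 4.64% in V3 cells. The ratio of miR-106a-5p to miR-20b-5p was thus 2.82 and 2.52 in E10.5 motoneurons and 5.86 and 5.44 in E10.5 GFP-negative cells, but 0.134 in E12.5 motoneurons, 0.224 in V2a and 0.155 in V3 cells. Stage and table cannot be told apart in this comparison, since each stage was deposited as a table of its own.

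**Figure D3:**
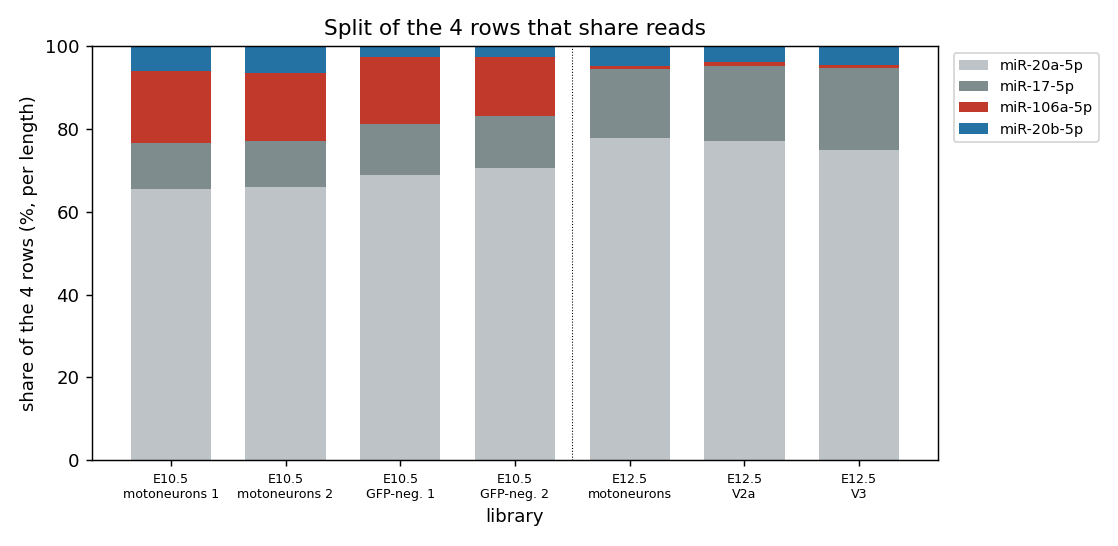
Share of the summed level per length, in percent, that each of the 4 rows with shared reads took in each of the 7 libraries. miR-20a-5p holds most of the sum everywhere, and miR-106a-5p takes 14.3% to 17.2% at E10.5 and under 1% at E12.5.

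Ratios within a library do not depend on how that library was scaled. Relative to miR-363-3p, per length, miR-93-5p stood at 4.93 and 4.07 in E10.5 motoneurons, against 7.89 and 9.75 in GFP-negative cells. miR-25-3p stood at 6.53 and 4.97 in motoneurons, against 9.72 and 9.40 in GFP-negative cells. miR-106b-5p stood at 1.11 and 0.799 in motoneurons, against 1.88 and 1.62 in GFP-negative cells. All of these ratios were lower in both motoneuron libraries, as was that of miR-106b-3p, at 0.524 and 0.404 in motoneurons, against 0.866 and 1.07 in GFP-negative cells. Summed over the 6 miR-106b~miR-25 rows, the ratio was 13.4 and 10.6 in motoneurons, against 20.8 and 22.7 in GFP-negative cells, so the motoneuron mean was 0.551 of the GFP-negative one. This was not particular to miR-106b~miR-25, since miR-363-3p itself lay above the median of all miRNAs. miR-106a-5p over miR-363-3p was 6.36 and 4.82 in motoneurons, against 13.8 and 14.5 in GFP-negative cells, and miR-20b-5p over miR-363-3p was 2.25 and 1.91 in motoneurons, against 2.36 and 2.67 in GFP-negative cells. Of the 9 other members 8 had a ratio to miR-363-3p that was lower in motoneurons without overlap, as had 53.6% of the 491 other tested miRNAs. With 2 libraries a group an exact two-sided permutation test cannot go below p = 0.333, so the ratios are given as values with no test.

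**Figure D4:**
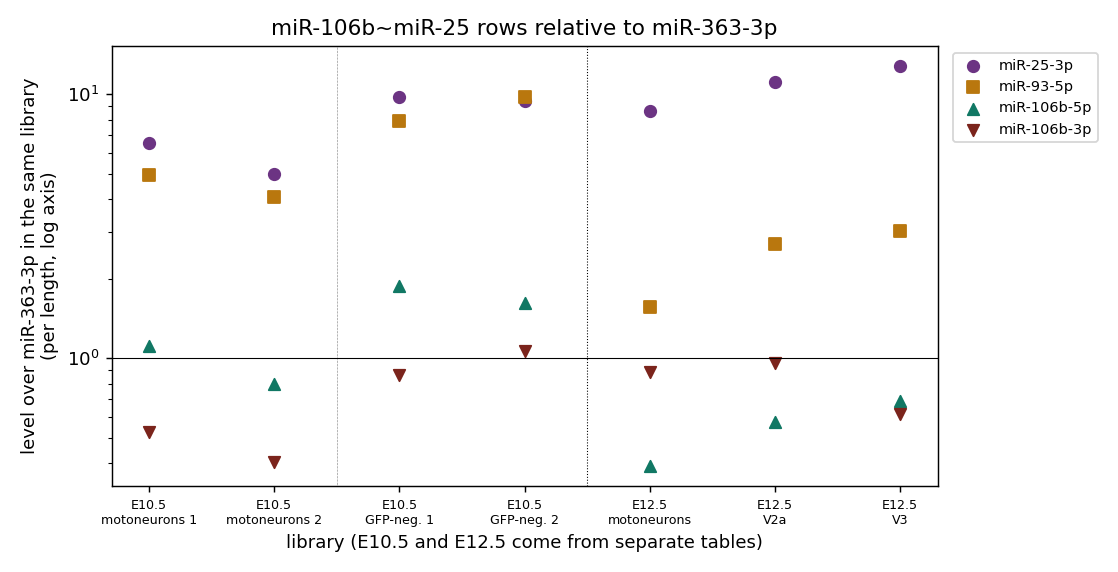
Level of 4 miR-106b~miR-25 rows over that of miR-363-3p in the same library, per length, on a log axis, for the 7 libraries. At E10.5 both motoneuron libraries lie below both GFP-negative ones for all 4 rows; at E12.5 motoneurons have the lowest ratio for miR-25-3p, miR-93-5p and miR-106b-5p and V3 cells for miR-106b-3p.

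The proportions among the guides of miR-106b~miR-25 at E10.5 were as follows. miR-93-5p over miR-106b-5p was 4.42 and 5.09 in motoneurons, against 4.19 and 6.003 in GFP-negative cells, and miR-25-3p over miR-93-5p was 1.32 and 1.22 in motoneurons, against 1.23 and 0.964 in GFP-negative cells. These ratios overlapped between the fractions, whereas miR-25-3p over miR-106b-5p was 5.86 and 6.22 in motoneurons, against 5.17 and 5.79 in GFP-negative cells, higher in motoneurons without overlap. At E12.5 miR-93-5p over miR-106b-5p was again 4.03 in motoneurons, 4.72 in V2a and 4.41 in V3 cells. miR-25-3p over miR-93-5p, however, was 5.52 in motoneurons, 4.12 in V2a and 4.205 in V3 cells, above all 4 E10.5 libraries, and stage and table cannot be told apart here either.

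Strand use was read from the 2 strands of a hairpin, with exact 95% intervals for counting error only. miR-106b-5p over miR-106b-3p was 2.13 (1.85 to 2.44) and 1.98 (1.63 to 2.40) in E10.5 motoneurons, against 2.17 (1.95 to 2.42) and 1.52 (1.33 to 1.73) in GFP-negative cells. It was 0.438 (0.370 to 0.515) in E12.5 motoneurons, 0.596 (0.525 to 0.677) in V2a and 1.12 (0.946 to 1.33) in V3 cells. The 5p strand was therefore the more abundant one in all 4 E10.5 libraries, and the 3p strand in E12.5 motoneurons and V2a cells. Stage and table cannot be told apart for the strand ratios of this hairpin or of those that follow, and each E12.5 group had 1 library. miR-363-3p over miR-363-5p was 3.79 and 3.30 in E10.5 motoneurons, against 3.75 and 3.76 in GFP-negative cells, and 4.87 in E12.5 motoneurons, 6.25 in V2a and 3.09 in V3 cells. The 3p strand of this hairpin was the more abundant one throughout.

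For miR-25, the 3p over the 5p strand was 28.98 and 15.4 in E10.5 motoneurons, against 23.4 and 12.8 in GFP-negative cells. Replicate 2 had the lower ratio in both fractions, and the fractions overlapped. At E12.5 it was 53.9 (43.8 to 67.2) in motoneurons, 218 (157 to 311) in V2a and 47.0 (39.2 to 57.0) in V3 cells, so V2a cells stood apart. miR-93 was the most one-sided hairpin of its cluster at E10.5, with a 5p over 3p ratio of 79.2 and 80.0 in motoneurons and 103 and 93.7 in GFP-negative cells, and at E12.5 miR-93-3p had 0 reads in motoneurons, 3 in V2a and 1 in V3 cells. The 0 reads in motoneurons allow up to 0.844 TPM.

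Apart from miR-363-5p, passenger strands of the second cluster were rare. miR-106a-3p had 1 and 0 reads in E10.5 motoneurons, against 2 and 0 in GFP-negative cells, and miR-20b-3p and miR-19b-2-5p had 0 reads in all 4. A count of 0 at E10.5 allows up to 3.74 to 6.08 RPM. Of the 8 rows of miR-106a~miR-363 outside the 4 members, 4 reached the level to be tested and 2 were lower in motoneurons. These 2 were miR-19b-3p (log2 fold change -1.22, limma adjusted p = 0.00371) and miR-92a-3p (-0.68, limma adjusted p = 0.0104), and both are also made by miR-17~92. Of the 12 miR-17~92 rows 10 were tested and 8 were lower, with a median log2 fold change of -1.18. With miR-106a-5p, the called rows of the second cluster all had a mature strand that miR-17~92 also makes or that shares reads with it. miR-20b-5p and miR-18b-5p, which share reads too, did not pass as single rows. The summed bundles that hold them were called lower, at log2 fold changes of -1.35 and -0.75. The part of miR-17~92 in these levels was not tested. Of the second cluster's passengers, miR-18b-3p had 23.7 and 12.2 RPM in E10.5 motoneurons, against 5.14 and 18.6 RPM in GFP-negative cells, and these overlapped. At E12.5 miR-18b-3p had 13 reads (3.66 TPM) in motoneurons and 0 reads in V2a and in V3 cells, which allow up to 0.667 and 0.721 TPM.

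Shares within a seed group give another view of the members. miR-93-5p and miR-106b-5p together made up 14.1% and 14.2% of the 6 rows with the miR-17 seed in E10.5 motoneurons, against 10.2% and 10.1% in GFP-negative cells. Both were lower in motoneurons, but miR-17-5p and miR-20a-5p of the same group had larger differences, with log2 fold changes of -1.50 and -1.43. At E12.5 the 2 miRNAs made up 15.3% of the group in motoneurons, 17.3% in V2a and 15.7% in V3 cells.

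In the miR-25/miR-92 seed group, miR-25-3p made up 8.44% and 7.83% in E10.5 motoneurons, against 9.92% and 7.76% in GFP-negative cells, and the fractions overlapped. miR-363-3p made up 1.29% and 1.57% in motoneurons, against 1.02% and 0.825% in GFP-negative cells. Most of the group at E10.5 was miR-92a-3p, at 67.4% and 69.5% in motoneurons and 75.9% and 81.9% in GFP-negative cells. At E12.5 miR-25-3p made up 42.3% in motoneurons, 39.4% in V2a and 20.9% in V3 cells, while miR-92a-3p made up 3.47% in motoneurons, 1.603% in V2a and 0.862% in V3 cells. miR-92b-3p, a strand with the same seed from another gene, held most of the rest, at 47.2% in E12.5 motoneurons, 53.5% in V2a and 75.3% in V3 cells. Stage and table cannot be told apart for these shares, and the share of miR-25-3p depends on the level of miR-92a-3p in the same table. Of the 3 strands with this seed outside both clusters and miR-17~92, 2 were tested at E10.5. miR-92b-3p was higher in motoneurons (12958 and 11003 RPM, against 9288 and 7582 RPM in GFP-negative cells, log2 fold change 0.51, limma adjusted p = 0.0481), and miR-32-5p did not pass (-0.37, limma adjusted p = 0.314).

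Per length, the order of the members at E10.5 began with miR-25-3p, miR-106a-5p and miR-93-5p in motoneurons, where the first 2 overlapped between replicates. In GFP-negative cells it began with miR-106a-5p, miR-25-3p and miR-93-5p, where miR-25-3p and miR-93-5p overlapped. miR-20b-5p came next in both. miR-363-3p stood above miR-106b-5p in motoneurons, with overlapping replicates, and below it in GFP-negative cells without overlap. In all 3 E12.5 libraries the order began with miR-25-3p, miR-93-5p and miR-363-3p, and miR-106a-5p was in the last 3. Stage and table cannot be told apart for this order.

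At E12.5 each population had 1 library, so differences are values with no replicate check, and intervals cover counting error only. A member counted as past 2-fold on the log2(TPM + 1) scale, and 9 of 10 members were abundant enough to be considered. On the TPM scale most members differed by less than 2-fold between the populations of every pair. With totals lacking the 5 most abundant miRNAs, however, 3 members were past 2-fold lower in motoneurons than in V2a cells and 5 in motoneurons than in V3 cells, with 0 higher in either pair. That scaling moved all rows. The median log2 ratio of all 772 miRNAs considered was then -0.83 for motoneurons over V2a and -0.54 for motoneurons over V3 cells. The share of all miRNAs past 2-fold under that scaling is not given here. Of motoneurons over V2a cells on the TPM scale, 1 member was past 2-fold higher (14.4% of all 772 miRNAs considered) and 0 lower (23.8%; 38.2% in either direction). Of motoneurons over V3 cells, 1 was higher (26.8%) and 0 lower (14.2%; 41.1% in either direction). Of V2a over V3 cells, 1 was higher (28.6%) and 1 lower (8.94%; 37.6% in either direction). The members' median log2 ratios of -0.32, -0.19 and 0.40 for these pairs stood beside -0.22, 0.23 and 0.48 over all miRNAs considered.

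The members past 2-fold on the TPM scale were the partner strands of miR-106b-5p and miR-25-3p. miR-106b-3p had 140 TPM in motoneurons, 150 TPM in V2a and 63.5 TPM in V3 cells. It was 2.21-fold higher in motoneurons than in V3 cells (interval 1.90 to 2.57) and 2.37-fold higher in V2a than in V3 cells (2.05 to 2.74). With median-of-ratios scaling these log2 ratios were 0.89 and 0.75, so neither was past 2-fold. miR-25-5p had 25.2 TPM in motoneurons, 8.04 TPM in V2a and 28.1 TPM in V3 cells, which was 3.13-fold higher in motoneurons than in V2a cells (2.13 to 4.79). The log2 ratio was 0.96 with a pseudocount of 10 and 0.93 with totals lacking the 5 most abundant miRNAs, no longer past 2-fold. It was 0.286 times as abundant in V2a as in V3 cells (0.190 to 0.417), from 36 reads in V2a and 117 in V3 cells.

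Among the guides, miR-25-3p had 1365 TPM in motoneurons, 1743 TPM in V2a and 1323 TPM in V3 cells, a ratio of 0.783 (0.755 to 0.812) for motoneurons over V2a and of 1.03 (0.993 to 1.07) for motoneurons over V3. miR-93-5p had 247 TPM in motoneurons, 423 TPM in V2a and 315 TPM in V3 cells, and its motoneuron level was 0.584 (0.539 to 0.631) of that in V2a cells. miR-106b-5p had 61.3 TPM in motoneurons, 89.6 TPM in V2a and 71.3 TPM in V3 cells. All 3 guides of miR-106b~miR-25 were highest in the V2a library on the TPM scale, but with median-of-ratios scaling V2a cells lay below V3 cells, at log2 ratios of -0.15 for miR-106b-5p, -0.05 for miR-93-5p and -0.08 for miR-25-3p. They were lower in motoneurons than in V2a cells under each scaling tried. On the TPM scale the log2 ratios were -0.54 for miR-106b-5p, -0.77 for miR-93-5p and -0.35 for miR-25-3p. The median over all miRNAs considered was -0.22. When totals lacked the 5 most abundant miRNAs, the ratios were -1.18 for miR-106b-5p, -1.42 for miR-93-5p and -0.999 for miR-25-3p. The median was then itself -0.83.

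In the second cluster, miR-363-3p had 158 TPM in motoneurons, 157 TPM in V2a and 103 TPM in V3 cells. The ratio of motoneurons over V2a was 1.004 (0.897 to 1.12), and that of motoneurons over V3 was 1.52 (1.34 to 1.73), which turned to a log2 ratio of -0.23 with totals lacking the 5 most abundant miRNAs. miR-18b-5p ran the other way, with 47.4 TPM in motoneurons, 59.6 TPM in V2a and 90.4 TPM in V3 cells. It shares reads with miR-18a-5p, and with the shared rows summed the log2 ratio of motoneurons over V3 was -0.24 in place of -0.92 and that of V2a over V3 turned to 0.17, against -0.59 for the row alone. miR-20b-5p was nearly level, at 84.2 TPM in motoneurons, 97.2 TPM in V2a and 96.3 TPM in V3 cells, while miR-106a-5p had 11.3 TPM in motoneurons, 21.8 TPM in V2a and 14.9 TPM in V3 cells. Summed, the 6 miR-106b~miR-25 rows had 1839 TPM in motoneurons, 2416 TPM in V2a and 1801 TPM in V3 cells, and the 4 miR-106a~miR-363 rows had 300 TPM in motoneurons, 336 TPM in V2a and 305 TPM in V3 cells.

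**Figure D5:**
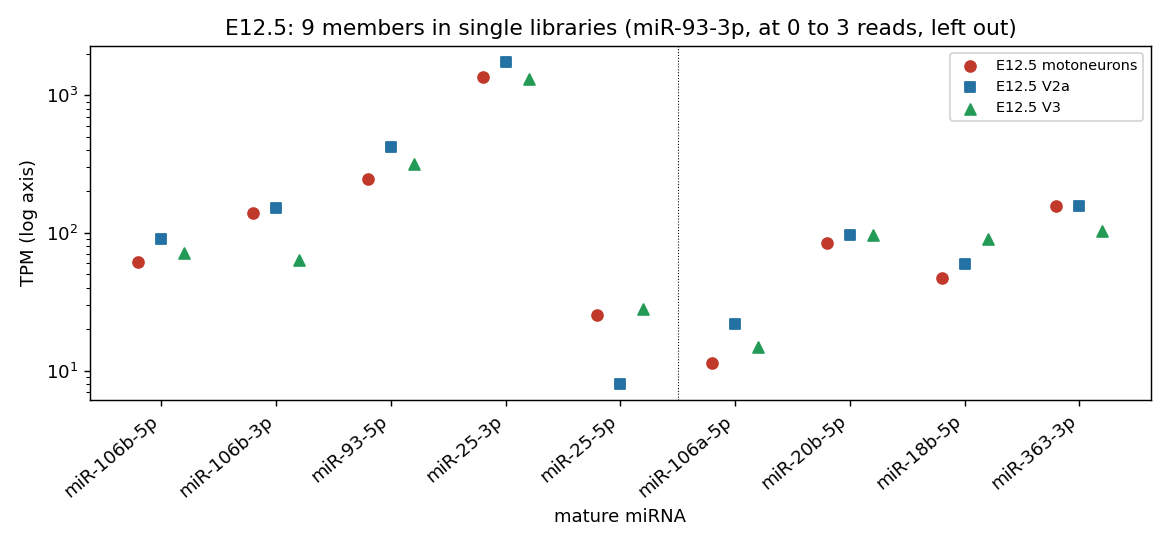
Level of 9 members in the single E12.5 libraries of motoneurons, V2a and V3 cells, in TPM on a log axis; each point is 1 library and there are no error bars. miR-25-5p is lowest in V2a cells at 8.04 TPM, miR-106b-3p is lowest in V3 cells at 63.5 TPM, and miR-25-3p is the most abundant member in all 3.

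The miRNAs with patterns most like those of the guides were found over all 7 libraries, as the root mean square difference of log2 level after each row was centred within each stage, among 421 rows abundant at both stages. For miR-106b-5p the nearest was its cluster neighbour miR-25-3p, at 0.102, followed by miR-380-5p at 0.123 and miR-93-5p at 0.164. For miR-93-5p the nearest were miR-380-5p at 0.113, miR-106b-5p at 0.164 and miR-106a-5p at 0.166, and for miR-25-3p they were miR-130b-3p at 0.0846, miR-106b-5p at 0.102 and miR-380-5p at 0.109. The sum of the 4 miR-106a~miR-363 rows was nearest to miR-540-3p, at 0.0866, miR-21a-5p at 0.118 and miR-380-5p at 0.122. The 3 guides of miR-106b~miR-25 thus had another member of their own cluster among their 3 nearest rows in each case. All rows share the libraries' depth, and the values are a description.

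Markers of other cells also separated the E10.5 fractions. All 10 mesenchymal rows (miR-199, miR-214, miR-143 and miR-145 strands) were lower in motoneurons, with a summed level of 424 to 1571 RPM, against 81413 to 94290 RPM in GFP-negative cells, and miR-145a-3p was at 0 in both motoneuron libraries. All 3 tested of 4 muscle rows were lower (130 to 355 RPM in motoneurons, against 3796 to 4192 RPM in GFP-negative cells), as were all 3 sensory neuron rows (1971 to 2325 RPM in motoneurons, against 9171 to 9535 RPM in GFP-negative cells). Of 9 neuronal rows 3 were higher and 0 lower in motoneurons. The 1 tested endothelial row was lower (both rows summed to 295 to 508 RPM in motoneurons, against 676 to 977 RPM in GFP-negative cells), and 4 blood rows summed to 6.08 to 12.46 RPM in motoneurons, against 18.6 to 36 RPM in GFP-negative cells. With mesenchymal and muscle rows taken out of the totals, the same 5 members were called lower. That step only rescales whole libraries, so it cannot show what these cells contribute. It moved the median log2 fold change of all tested miRNAs from -0.34 to -0.47, and 33.5% of them were then called lower. How far these other cells contribute to the members' levels in the GFP-negative fraction was not tested.

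At E12.5 the mesenchymal rows summed to 199 TPM in motoneurons, 249 TPM in V2a and 310 TPM in V3 cells, the muscle rows to 126 TPM in motoneurons, 221 TPM in V2a and 63.0 TPM in V3 cells, and the endothelial rows to 177 TPM in motoneurons, 405 TPM in V2a and 174 TPM in V3 cells. The endothelial and muscle sums were thus highest in V2a cells, as were the 3 miR-106b~miR-25 guides on the TPM scale. The muscle rows did not move as one, however. miR-206-3p was highest in V2a cells, at 175 TPM, against 32.9 TPM in V3 cells and less in motoneurons. miR-1a-3p, which shares reads with it, was highest in motoneurons, at 118 TPM, against 41.2 TPM in V2a and 28.1 TPM in V3 cells. The part of endothelial and muscle cells in the guides' level was not tested.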

How the data were processed

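Small RNA libraries were made with a NEBNext kit from miRvana total RNA and sequenced on HiSeq instruments, per the labels' protocols. Per the submitters' processing notes, Bowtie2 was used. Which program counted reads, and on which build and annotation, is not given in the sources used here. For E10.5 the authors deposited RPM of 1908 rows, each library summing to 1000000, with a bundle for each row (1793 bundles, 1724 of a single row). Of low values in single-row bundles, 97.3% to 100% lay within 0.05 of a whole number of reads, so parts of reads sat mostly in shared rows. The E12.5 values carry no unit. They were taken to be FPKM as deposited by the authors, because low values rise in steps of 1 read over the mature length (74.6% to 81.0% of them within 0.05), and were rescaled to TPM. Reads behind E12.5 values are thus estimates.

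The test between E10.5 fractions was limma 3.58.1 (R 4.3.3; two-sided, moderated with a mean-variance trend) on log2(RPM + 1). It took rows that reached 15.2 RPM (10 reads at median depth) in 2 or more libraries. The pseudocount makes changes of low rows look smaller. P-values were adjusted over all 492 tested rows at 0.05. Whether replicates are separate litters is not stated, so p-values cover no more than the spread of these libraries, and that may be technical. Replicates differed by more than sampling noise (chi-square per degree of freedom 11.8 for motoneurons and 17.0 for GFP-negative cells). On simulated data for this comparison (492 miRNAs, 200 changed, dispersion 0.04) 61.5% of 2-fold and 97.8% of 4-fold changes were recovered, with 2.56% false calls. Whether these rates hold for the measured libraries, where the calls depended on the scaling, was not tested. E12.5 libraries were described by 2-fold ratios over rows with a mean of 2.40 TPM, with exact 95% intervals. The text names all members, related strands, and the 3 rows most like each guide. Members and lists were chosen with earlier results of these data known. The blood marker miR-486a-5p was not analysed here.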

Additional observations from a re-analysis of the deposited data

How the results depend on the processing

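Of the 10 members, the 5 called lower at E10.5 became 3 with no abundance filter except rows at 0, 3 without the mean-variance trend, 2 with median-of-ratios scaling, 2 with TMM factors, 2 with totals lacking the 5 most abundant miRNAs and 1 with quantile normalization, which called 2 as higher (miR-20b-5p and miR-363-3p). Leaving out 1 library gave 1 to 5 lower and 0 higher. Over all miRNAs, the 57 called higher became 34 with no filter, 94 with median-of-ratios scaling, 100 with TMM, 105 without the top 5 and 114 with quantile normalization, and 27 to 48 with 1 library left out. The 151 called lower became 100 with quantile normalization, and 106 to 125 with 1 library left out. The split of lower to higher calls, 30.7% to 11.6% of tested miRNAs in the main analysis, was 23.6% to 19.1% with median-of-ratios scaling, 24.6% to 20.3% with TMM, 23.6% to 21.3% without the top 5 and 20.3% to 23.2% with quantile normalization. The median log2 fold change of all miRNAs, -0.34, moved to -0.00, -0.01, 0.03 and 0.15 under these 4 scalings. With no abundance filter, 9.92% of 1270 tested miRNAs were called lower and 2.68% higher. Without the mean-variance trend these shares were 27.4% and 10.4% of 492.

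Directions turned for miR-20b-5p (0.23 with median-of-ratios, 0.22 with TMM, 0.26 without the top 5, 0.68 with quantile normalization), for miR-106b-5p (0.0057) and miR-25-3p (0.039) with quantile normalization, and for miR-18b-5p (-0.047 with totals lacking mesenchymal and muscle rows, -0.75 with shared rows summed, -0.13 without motoneuron replicate 2, within a range of -0.13 to 0.30 with 1 library left out). Over all members and alternatives at E10.5, 124 log2 fold changes kept direction and call, 24 lost the call, 6 gained one and 9 turned direction. Of those 9, miR-106b-5p and miR-25-3p also lost the call (quantile normalization), and miR-20b-5p (quantile normalization) and miR-18b-5p (shared rows summed) also gained one. The causes were not tested.

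The replicate numbers are shared between the fractions, but nothing says that they pair libraries. Deviations of same-numbered libraries from their group means correlated at 0.261 over the tested rows. With 2 libraries a group the second pair mirrors the first, so it adds nothing to this value. With a replicate block 6 members were called lower, miR-25-5p (limma adjusted p = 0.0135) being added. Of all tested miRNAs 32.9% were then lower and 13.6% higher.

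At E12.5 the 1 member past 2-fold higher in motoneurons than V2a cells became 0 with a pseudocount of 10 and 0 without the top 5, which put 3 lower in place of 0. The 1 higher in motoneurons than V3 cells became 0 with median-of-ratios, TMM and totals without the top 5, and the 0 lower became 1, 1 and 5. The 1 higher in V2a than V3 cells became 0 with median-of-ratios and TMM, and the 1 lower became 2 with each. The medians of all miRNAs considered moved too. Without the top 5 they were -0.83 for motoneurons over V2a and -0.54 for motoneurons over V3 cells. For motoneurons over V3 cells the median was 0.004 with median-of-ratios and 0.01 with TMM. For V2a over V3 cells it was 0.03 and 0.04 in that order. Over all members and alternatives, 126 E12.5 log2 ratios stayed within their counting interval and 63 moved out of it. Depth limits miR-93-3p and the rare passenger strands, and 1 library a group leaves E12.5 differences without a test.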
